A study of Arabidopsis thaliana with 6 samples.

Results

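A set of 54 transcripts was moderately lower in Arabidopsis thaliana plants that overexpress a plant cysteine oxidase than in wild type when both were short of oxygen. They were chosen from 22746 probe sets by 3 conditions on the log2 signal. The mean of the 3 35S:PCO1 arrays minus the mean of the 3 wild-type arrays was above -0.7 and at most -0.4, every 35S:PCO1 value lay below every wild-type value, and the wild-type mean was at least 5. The lower signal, its size and the separation of the groups are therefore conditions of the choice and not results, and every change printed for a member is a description without a test. On the linear scale the members' signals in 35S:PCO1 were 1.32 to 1.61 times lower, or 75.8% down to 62.2% of wild type.

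The 35S:PCO1 plants carry PCO1 (plant cysteine oxidase 1) under the cauliflower mosaic virus 35S promoter, which is active in most plant tissues, and the plants they were set against were wild type. Plants of both genotypes grew on soil in short days of 8 h light and 16 h darkness, at 22 °C by day and 18 °C by night, and all were then held for 4 h in darkness at 5% oxygen. There are 3 arrays of each genotype. The labels give both whole rosettes and whole plants as the tissue and both 4 and 5 weeks as the age, and they do not say how many transgenic lines were used or whether replicates were separate plants. Plants kept in normal air are not part of these data, so no induction by hypoxia was measured. If the genotypes were treated in different runs, a difference between runs and the genotype cannot be told apart. The level of PCO1 is not analysed here.

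With oxygen as a substrate, plant cysteine oxidases modify a cysteine at the N-terminus of certain transcription activators, the group VII ethylene response factors, and so send them to degradation. When oxygen is scarce the factors persist and switch on a core set of genes for fermentation, sugar use and signalling. The named genes described here lie mostly outside that core and belong to processes such as hormone signalling, defence, cell wall remodelling and oxygen-using enzymes.

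Marker genes of leaf and other tissues were looked up. The 3 mesophyll markers that could be matched, LHCB4.1, RCA and PSAN, had group means from 12.31 to 13.25 in 35S:PCO1 and from 12.41 to 13.31 in wild type. For the 3 matched root markers the mean per array lay between 5.85 and 5.87 in 35S:PCO1 and between 5.90 and 6.03 in wild type. A signal also depends on the probes of its probe set, so these signals do not tell rosettes from whole plants. A single matched marker each of guard cells (FMA, -0.017) and trichomes (TRY, 0.063) differed little between the genotypes on the log2 scale, and no flower or seed marker was matched. In 2 of the 3 RNA quality controls, wild type replicate 2 lay above the other arrays. Its log2 difference between the 3 prime and 5 prime signals was 0.813 for GAPDH and 1.78 for actin. The 35S:PCO1 arrays lay between 0.423 and 0.435 for GAPDH and between 1.37 and 1.47 for actin, and the other wild-type arrays between 0.271 and 0.287 and between 1.42 and 1.52. For ubiquitin it had 0.980, within the range of 35S:PCO1 from 0.941 to 0.997, and wild type replicate 1 was highest with 1.10. The mean of the root markers was lower on every 35S:PCO1 array than on any wild-type array, the order that the members have by choice, although in none of the 3 alone were the groups separate. The part of root tissue or of RNA quality in the members' values was not tested. In RNA from whole organs, fewer cells of a type and less RNA per cell cannot be told apart.

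Of the 54 members, 25 name 1 gene and 29 are not listed in the annotation. The rule turned round, with every 35S:PCO1 array above every wild-type array and a difference of at least 0.4 and under 0.7, found 53 probe sets. Moderate decreases were therefore about as many as moderate increases. Without a condition on the change, the 2 directions were less even. Of the 14099 probe sets with a wild-type mean of at least 5, every 35S:PCO1 value lay below every wild-type value in 13.9%. The opposite held in 5.8%. The median signal of these probe sets lay between 7.17 and 7.18 on the 35S:PCO1 arrays and between 7.20 and 7.23 on the wild-type arrays. Outside that window, 34 probe sets were lower by 0.7 or more and 15 were higher by 0.7 or more under the same conditions. Of 52 hypoxia-responsive genes listed for comparison, 27 were matched to a probe set. That list, chosen with earlier results of these data known, holds 13 of the 19 named genes with a larger decrease. It holds 1 of the 25 named members.

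The wild-type means of the members ran from 5.03 to 11.08 with a median of 7.66, against a median of 7.21 over all 14099 probe sets that reach the threshold. In 7 members it was above 10, 2 of them named. The log2 change had a median of -0.49 over the members, against -0.012 over all probe sets. The 25 named members had a median of -0.48, and the 29 unlisted ones a median of -0.51.

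**Figure D1:**
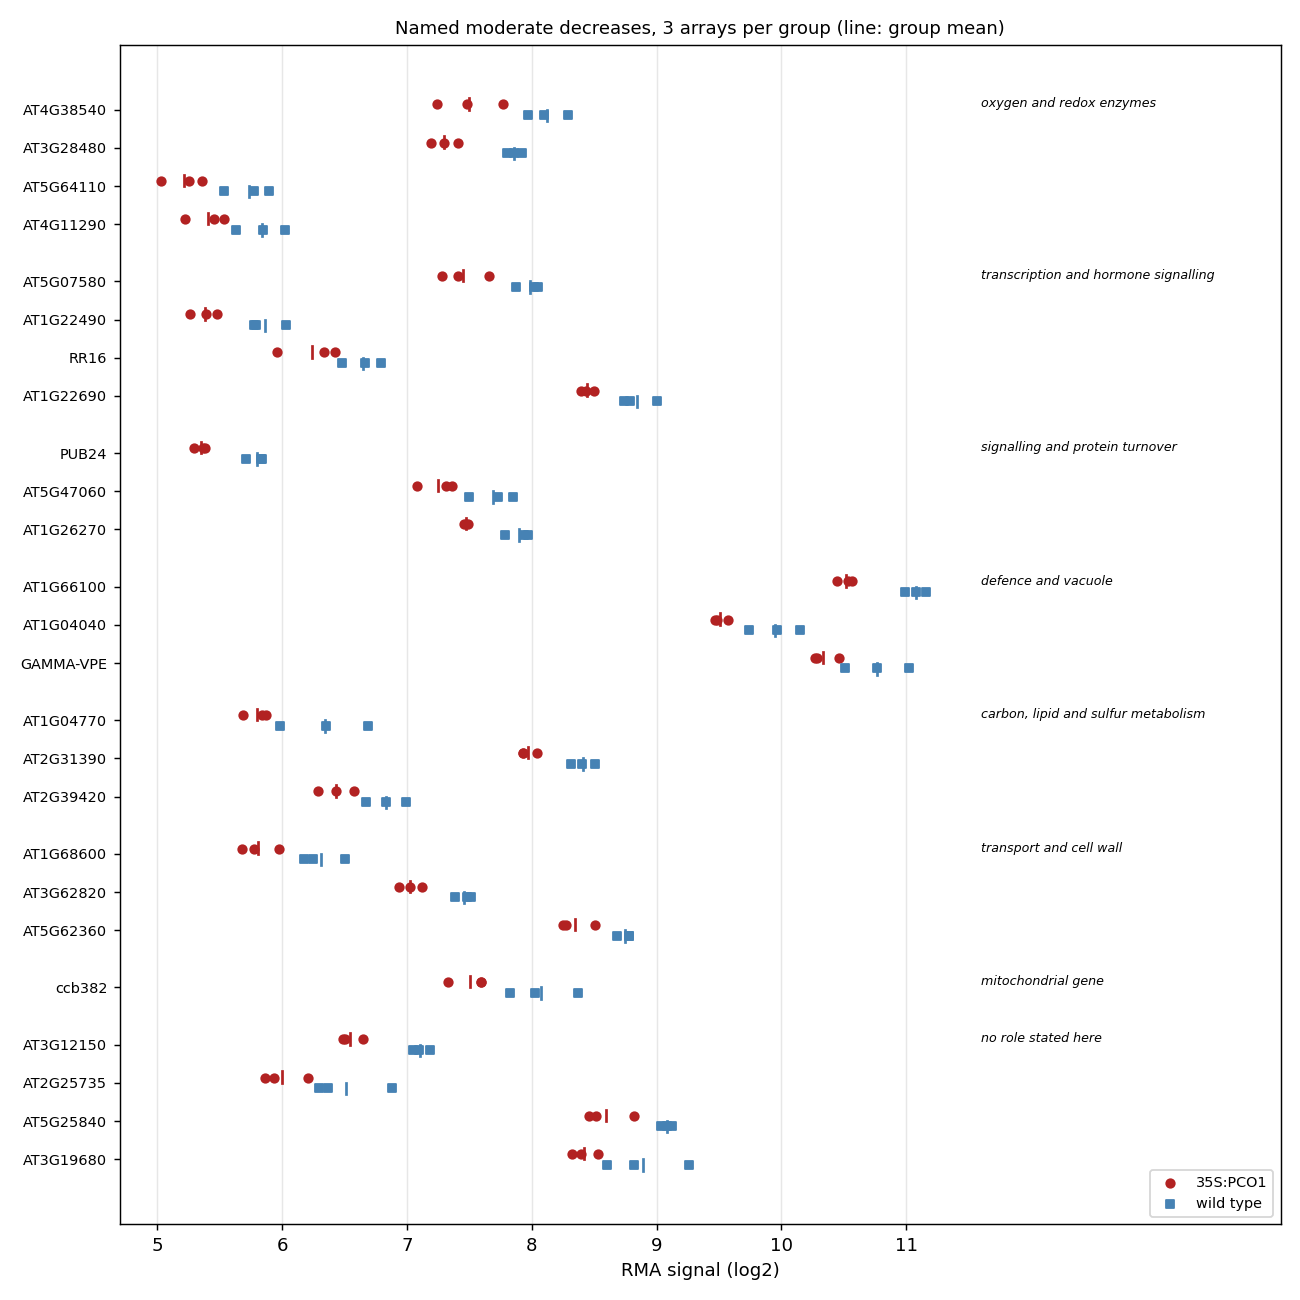
RMA signal on the log2 scale of the 25 named members, grouped by role, with 1 point per array (35S:PCO1 as circles, wild type as squares) and a line at each group mean. In each gene the 35S:PCO1 points lie left of the wild-type points, as the rule requires, and AT1G66100 and GAMMA-VPE have wild-type means of 11.08 and 10.77.

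Enzymes that use oxygen or peroxide made up 4 of the named members. AT4G38540 belongs to the FAD-dependent monooxygenases, which insert an oxygen atom into a substrate with the help of a flavin. Its log2 signal was 7.48, 7.77 and 7.24 in 35S:PCO1, against 8.10, 7.97 and 8.29 in wild type. It had the largest difference of the named members, -0.62 (SE 0.13), or 1.54-fold lower, and the widest spread within 35S:PCO1. Replicate 2 of 35S:PCO1 lay closest to wild type. AT5G05320, a related monooxygenase gene, had a change of 0.015 (SE 0.12).

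AT3G28480 encodes a prolyl 4-hydroxylase. Such enzymes need molecular oxygen, iron and 2-oxoglutarate, and they hydroxylate prolines of cell wall proteins. The signal of AT3G28480 was 7.29, 7.19 and 7.41 in 35S:PCO1, against 7.92, 7.80 and 7.86 in wild type, and the arrays within each genotype lay close together. The difference was -0.56 (SE 0.072), or 1.48-fold lower in 35S:PCO1.

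The prolyl 4-hydroxylase family had 7 other matched genes, and in 4 of them every 35S:PCO1 array was below every wild-type array. Across all probe sets that share was 10.5%. AT1G20270 had the largest of these differences, with signals of 5.11, 5.01 and 5.22 in 35S:PCO1, against 5.50, 5.43 and 5.39 in wild type. It therefore missed the window with a change of -0.33 (SE 0.072). AT4G33910 had -0.18 (SE 0.067), AT5G18900 -0.17 (SE 0.065) and AT3G28490 -0.12 (SE 0.06). AT3G28490, which lies directly beside AT3G28480 on the chromosome, was dim, with a wild-type mean of 3.62. The family was not uniform, since AT4G25600 was higher in 35S:PCO1 on average, by 0.23 on the log2 scale, and AT4G35820 differed by 0.039.

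AT5G64110 and AT4G11290 encode class III peroxidases, secreted haem enzymes that use hydrogen peroxide to cross-link or loosen cell walls. AT5G64110 had 5.25, 5.03 and 5.36 in 35S:PCO1, against 5.77, 5.90 and 5.53 in wild type, a change of -0.52 (SE 0.11). For AT4G11290 the values were 5.46, 5.22 and 5.54 in 35S:PCO1, against 5.85, 5.63 and 6.02 in wild type, a change of -0.43 (SE 0.11). In both genes the lowest 35S:PCO1 value came from replicate 2. The peroxidase family as a whole did not share this difference. Among its 53 other matched genes the median change was 0.010, 23 had a negative change, and in 3 every 35S:PCO1 array was below every wild-type array. Most of these 53 had a wild-type mean under 5, the threshold set for members, and folds of such dim genes may be understated. AT2G37130, at -0.38 (SE 0.079), and AT3G21770, at -0.35 (SE 0.069), came nearest to the window, both with separate groups. AT5G64100 and AT5G64120, which lie directly beside AT5G64110 on the chromosome, had changes of 0.011 and 0.15.

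Genes of transcription and hormone signalling made up another 4 named members. AT5G07580 encodes a transcription factor of the ethylene response factor family, in its group IX, which is distinct from the group VII factors that plant cysteine oxidases act on. Its signal was 7.41, 7.66 and 7.28 in 35S:PCO1, against 8.05, 7.87 and 8.02 in wild type, a change of -0.53 (SE 0.099). Replicate 2 of 35S:PCO1 lay above the other 2 arrays of that genotype. The one other matched gene of the group, AT5G61590, had 10.19, 10.59 and 10.16 in 35S:PCO1, against 10.68, 10.56 and 10.77 in wild type. In AT5G61590 the 35S:PCO1 value of replicate 2 again lay highest and overlapped wild type, and the change was -0.36 (SE 0.12).

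AT1G22490 encodes bHLH94, a basic helix-loop-helix transcription factor of the subgroup that also holds the stomatal regulators SPCH, MUTE and FAMA. Its signal was 5.39, 5.48 and 5.26 in 35S:PCO1, against 5.79, 6.03 and 5.77 in wild type, a change of -0.49 (SE 0.089). The stomatal regulators had smaller changes, with SPCH at -0.083, MUTE at -0.11 and FAMA (FMA) at -0.017. In the subgroup's 6 other matched genes, 1 had every 35S:PCO1 array below every wild-type array, AT4G01460 with -0.20 (SE 0.064).

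RR16 is a type-A response regulator, a class that cytokinin induces and that damps cytokinin signalling. Its signal was 6.33, 5.95 and 6.43 in 35S:PCO1, against 6.67, 6.48 and 6.79 in wild type. The distance between the groups was small, with wild type replicate 2 just above replicate 3 of 35S:PCO1, and the change was -0.41 (SE 0.13). ARR15, another type-A regulator, had 5.87, 5.50 and 5.90 in 35S:PCO1, against 5.98, 6.05 and 5.85 in wild type, and its groups overlapped. In both genes replicate 2 of 35S:PCO1 was the lowest array. AT1G22690 belongs to the gibberellin-regulated GASA family of small cysteine-rich proteins. It had 8.43, 8.50 and 8.39 in 35S:PCO1, against 8.78, 8.74 and 9.00 in wild type, a change of -0.40 (SE 0.08), which is among the members nearest to the upper threshold.

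Signalling and protein turnover held 3 named members. PUB24 encodes a U-box ubiquitin ligase that, with PUB22 and PUB23, dampens immune signalling triggered by microbial patterns. Its signal was 5.29, 5.38 and 5.37 in 35S:PCO1, against 5.83, 5.71 and 5.84 in wild type, with little spread within either genotype, and the change was -0.45 (SE 0.063). PUB22 had a change of 0.05 (SE 0.068) and PUB23 of -0.069 (SE 0.077), and neither had separate groups.

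AT1G26270 encodes a phosphatidylinositol 4-kinase-like protein of the gamma type and is the only named member on the hypoxia-responsive list. It had 7.45, 7.49 and 7.47 in 35S:PCO1, against 7.94, 7.97 and 7.78 in wild type. The 3 arrays of 35S:PCO1 had an SD of only 0.016, and the change was -0.43 (SE 0.067). In 23 of the 27 matched genes of the hypoxia list every 35S:PCO1 array was below every wild-type array, and 10 of the 27 were called lower, where 10.5% and 0.193% of all probe sets met these conditions. The median change of the 27 was -0.51. The list was chosen with earlier results of these data known, so these shares describe its genes only. The list's PDC2, a pyruvate decarboxylase, at -0.31 (SE 0.071), and AT4G17260, a lactate dehydrogenase, at -0.33 (SE 0.08), differed by less than the window requires.

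AT5G47060 belongs to the FCS-like zinc finger family, small proteins that bind the energy-sensing kinase SnRK1. Its signal was 7.31, 7.08 and 7.36 in 35S:PCO1, against 7.73, 7.85 and 7.49 in wild type, a change of -0.44 (SE 0.11). The list drawn up for this family held only 4 genes, and the 3 others on it also had negative changes. AT4G17670 was below the window, with 5.03, 4.98 and 4.91 in 35S:PCO1, against 5.77, 5.72 and 5.86 in wild type and a change of -0.81 (SE 0.064). AT1G74940, a gene on the hypoxia-responsive list, had -0.25 (SE 0.082) with separate groups, and AT2G44670 had -0.053 (SE 0.065) with overlapping ones.

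Defence proteins and vacuolar enzymes held another 3. AT1G66100 encodes a thionin, a small antimicrobial peptide. It had 10.54, 10.44 and 10.56 in 35S:PCO1, against 11.08, 11.16 and 10.99 in wild type. The groups were well apart on this probe set, and the change was -0.56 (SE 0.068), or 1.48-fold lower. The thionins THI2.1 and THI2.2 had changes of -0.12 (SE 0.11) and -0.012 (SE 0.062), with overlapping groups.

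GAMMA-VPE is a vacuolar processing enzyme of vegetative tissue, a cysteine protease that matures vacuolar proteins and takes part in cell death. Its signal was 10.27, 10.46 and 10.28 in 35S:PCO1, against 10.77, 10.51 and 11.03 in wild type. Wild type replicate 2 lay just above the highest 35S:PCO1 array, and wild type replicate 3 lay far above both, with a change of -0.43 (SE 0.12). The other family members had wild-type means under 5 and differed less. ALPHA-VPE had -0.17 (SE 0.062) and BETA-VPE -0.094 (SE 0.056), both with every 35S:PCO1 array below every wild-type array, and DELTA-VPE had 0.015 (SE 0.077).

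AT1G04040 encodes an acid phosphatase of the HAD superfamily, related to the vegetative storage proteins. It had 9.57, 9.48 and 9.46 in 35S:PCO1, against 9.97, 9.74 and 10.15 in wild type, a change of -0.44 (SE 0.098), and wild type replicate 2 was again the lowest array of its genotype. All 5 matched relatives had negative changes, from -0.21 to -0.017, and 1 of them, AT4G25150 with -0.16 (SE 0.068), had separate groups. AT5G44020, another relative, had 10.35 ± 0.18 in 35S:PCO1 and 10.56 ± 0.28 in wild type (SD, n = 3 each), so its difference was within the spread of the arrays.

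Carbon, lipid and sulfur metabolism held 3 named members. AT2G31390 encodes a fructokinase, which phosphorylates the fructose that sucrose breakdown releases. Its signal was 7.93, 7.93 and 8.04 in 35S:PCO1, against 8.40, 8.51 and 8.31 in wild type, a change of -0.44 (SE 0.07). In the 5 other matched fructokinase genes the changes ran from -0.17 to 0.12, and in none were the groups separate. AT3G59480, for instance, had 0.12 (SE 0.094).

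AT2G39420 belongs to the monoacylglycerol lipase family, which releases fatty acids from glycerol. It had 6.43, 6.29 and 6.57 in 35S:PCO1, against 6.67, 6.99 and 6.83 in wild type, a change of -0.40 (SE 0.1), the smallest among the named members. Of 12 other matched lipase genes, 9 had a negative change and 3 had every 35S:PCO1 array below every wild-type array. AT5G19290 was the clearest of them, with 8.24, 8.17 and 8.12 in 35S:PCO1, against 8.47, 8.44 and 8.37 in wild type and a change of -0.25 (SE 0.061).

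AT1G04770 encodes SDI2, a sulfur deficiency-induced protein that restrains glucosinolate synthesis. Its values were 5.83, 5.69 and 5.87 in 35S:PCO1, against 6.35, 6.69 and 5.98 in wild type. The spread was in wild type, where replicate 2 was highest and replicate 3 lay close to 35S:PCO1. The change of -0.55 (SE 0.15) ran from -0.73 to -0.37 as each array was left out in turn.

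Transport and the cell wall held another 3. AT1G68600 belongs to the aluminium-activated malate transporters, anion channels of the plasma membrane and vacuole. It had 5.68, 5.97 and 5.77 in 35S:PCO1, against 6.18, 6.25 and 6.50 in wild type, a change of -0.50 (SE 0.10). The 3 other matched transporters, all with wild-type means under 5, changed by between -0.051 and 0.11, with overlapping groups. AT3G62820 and AT5G62360 belong to the invertase and pectin methylesterase inhibitors, which control wall stiffness and sugar release outside the cell. AT3G62820 had 7.02, 6.93 and 7.12 in 35S:PCO1, against 7.48, 7.39 and 7.51 in wild type, a change of -0.43 (SE 0.069). For AT5G62360 the values were 8.28, 8.25 and 8.50 in 35S:PCO1, against 8.68, 8.78 and 8.78 in wild type, a change of -0.40 (SE 0.079). In both genes wild type varied little between arrays, and replicate 3 was the highest array of 35S:PCO1.

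The remaining named members were a mitochondrial gene and 4 genes for which no role is stated here. The gene ccb382, now ccmFN1, is encoded in the mitochondrial genome and takes part in attaching haem to c-type cytochromes. It had 7.59, 7.59 and 7.33 in 35S:PCO1, against 8.37, 8.03 and 7.83 in wild type, a change of -0.57 (SE 0.13). Of the other mitochondrial genes of that pathway, ccb206 had -0.077 (SE 0.071), ccb203 0.086 (SE 0.10) and ccb452 0.15 (SE 0.069). None of them had every 35S:PCO1 array below every wild-type array, which the rule required of ccb382. They were also dimmer, with wild-type means of 5.10, 4.49 and 5.18, against 8.07 for ccb382.

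AT3G12150 had 6.51, 6.48 and 6.64 in 35S:PCO1, against 7.05, 7.18 and 7.09 in wild type, a change of -0.56 (SE 0.069). AT2G25735 had 5.86, 6.21 and 5.93 in 35S:PCO1, against 6.37, 6.29 and 6.88 in wild type, with wild type replicate 3 far above the other arrays, and a change of -0.51 (SE 0.15). AT5G25840, with 8.51, 8.82 and 8.46 in 35S:PCO1, against 9.03, 9.08 and 9.12 in wild type, had a tight wild type and a raised replicate 2 in 35S:PCO1. Its change was -0.48 (SE 0.094). AT3G19680 had 8.39, 8.53 and 8.32 in 35S:PCO1, against 8.82, 8.60 and 9.26 in wild type, a change of -0.48 (SE 0.15) that, like that of AT2G25735, drew much of its size from wild type replicate 3.

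**Figure D2:**
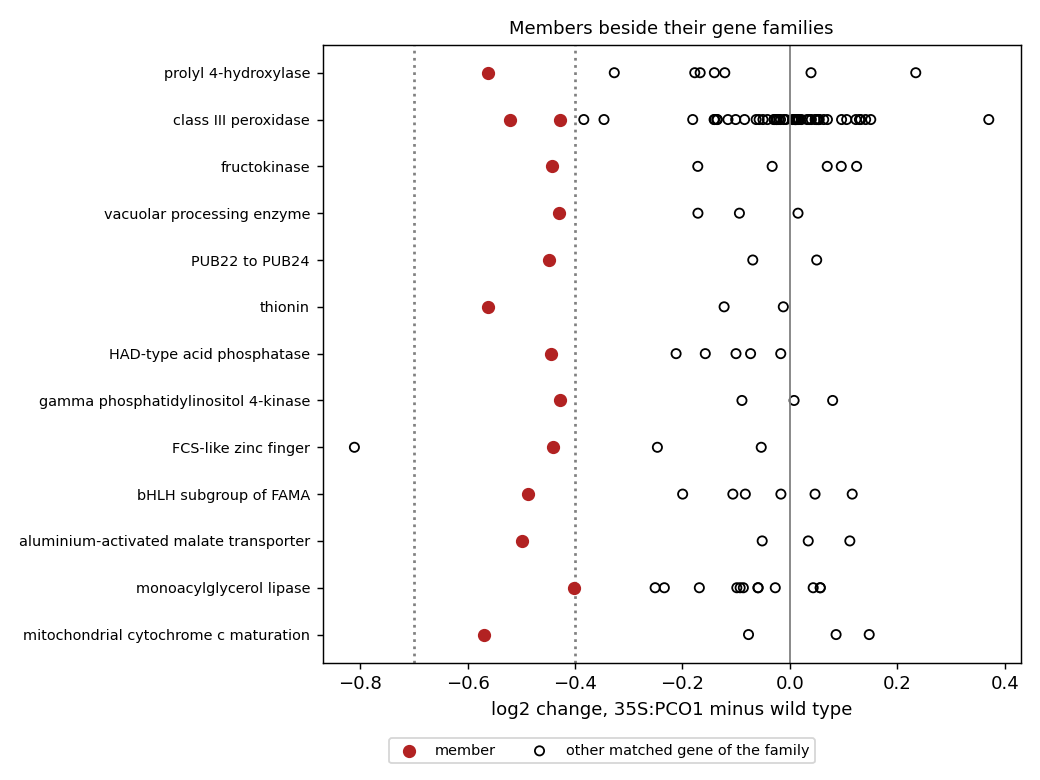
Log2 change (35S:PCO1 minus wild type, horizontal axis) of the named members (filled) and of the other matched genes of their families (open), for the 13 families with at least 2 others; dotted lines mark the window from -0.7 to -0.4. Most open circles lie near 0, with AT4G17670 of the FCS-like zinc fingers, at -0.81, as the exception below the window.

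Over all 17 families described, 111 other genes were matched, with a median change of -0.017. In 16 of them, or 14.4%, every 35S:PCO1 array was below every wild-type array, against 10.5% of all probe sets, and 1 was called. The families were drawn up after the members were known, so the shares describe these genes only.

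Among the 29 unlisted members the change ran from -0.69 to -0.40 and the wild-type mean from 5.03 to 10.62. The largest decrease of all members was that of an unlisted probe set, with 4.93, 5.13 and 5.07 in 35S:PCO1, against 5.83, 5.63 and 5.72 in wild type. Its change was -0.69 (SE 0.077). The next had 6.83, 6.83 and 6.78 in 35S:PCO1, against 7.38, 7.63 and 7.43 in wild type, a change of -0.67 (SE 0.075). On both, the groups were well separated. No gene name is given here for either.

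The members differed in how they varied between arrays. Their SD had a median of 0.11 in 35S:PCO1 and 0.14 in wild type, against 0.075 and 0.093 over all probe sets with a wild-type mean of at least 5. The lowest wild-type value exceeded the highest 35S:PCO1 value by a median of 0.23, and by 0.0072 to 0.55 over the members. In 11 members that distance was under 0.1, and in 19 it was over 0.3. Wild type replicate 3 was the highest array of its genotype in 26 members and replicate 2 in 22, and replicate 1 in 6. Over all probe sets with a wild-type mean of at least 5, wild type replicate 3 was highest in 37.0%, replicate 2 in 41.2% and replicate 1 in 21.8%. In 17 members wild type replicate 3 was highest and replicate 2 lowest, and in 15 the order of these 2 arrays was the opposite, so no single wild-type array was raised in all members. The median log2 signal of the 54 members was 7.20, 7.16 and 7.18 in 35S:PCO1, against 7.65, 7.72 and 7.58 in wild type.

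**Figure D3:**
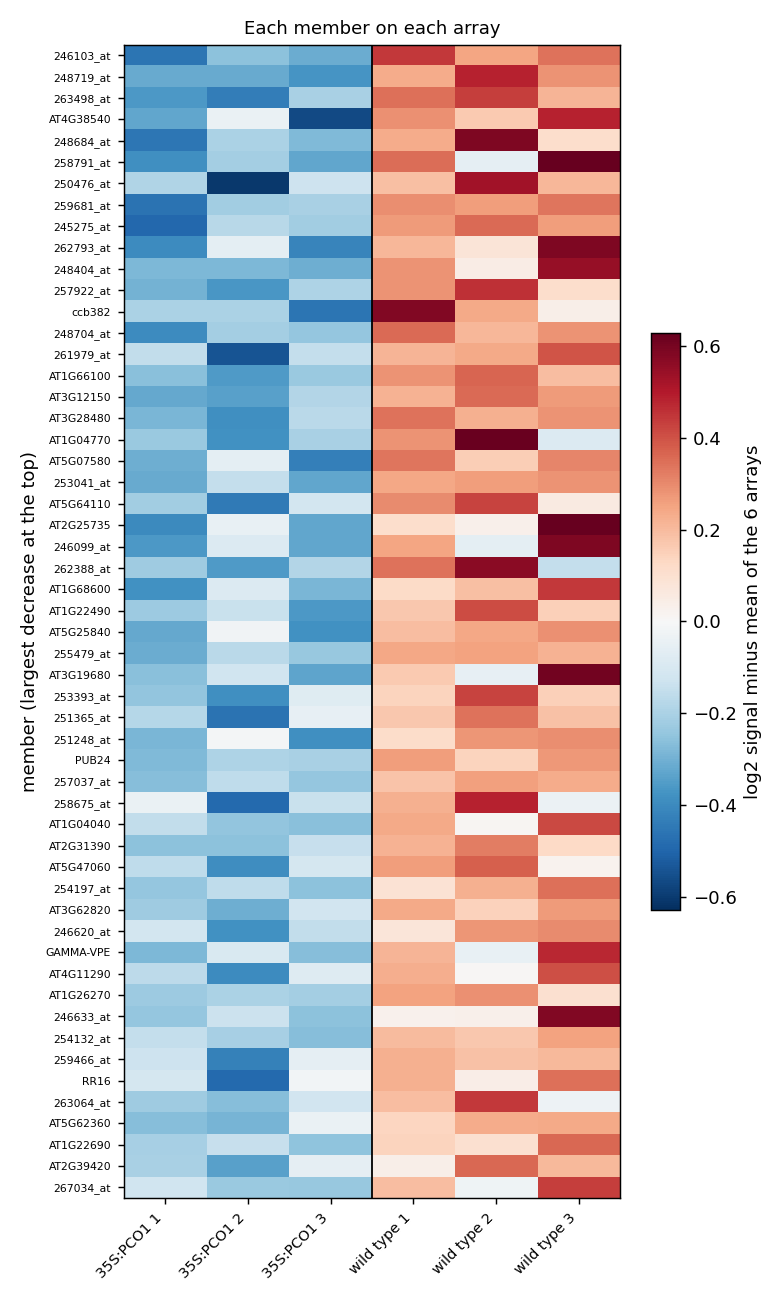
Log2 signal of each of the 54 members on each array minus that member's mean over the 6 arrays (red higher, blue lower), with 35S:PCO1 left of the line, wild type right of it, and the largest decrease at the top. Wild type replicates 2 and 3 hold the extremes of many rows in alternation, while wild type replicate 1 lies between them in most.

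When each array was left out in turn, all 54 members still had a lower mean in 35S:PCO1, with changes between -0.80 and -0.24. In 27 members the change was at most -0.4 in each of these 6 comparisons. Without wild type replicate 2, the array with the highest GAPDH and actin differences, 44 members had a change of at most -0.4, and the median was -0.50. Without wild type replicate 3 it was 40 members, with a median of -0.49, and without replicate 2 of 35S:PCO1 it was 41, with a median of -0.49. Among the named members, the change ranged most in AT1G04770 (-0.73 to -0.37), AT3G19680 (-0.62 to -0.30) and AT2G25735 (-0.63 to -0.33). Next came ccb382 (-0.69 to -0.42), AT4G38540 (-0.76 to -0.50), GAMMA-VPE (-0.56 to -0.30) and RR16 (-0.50 to -0.27). PUB24 (-0.49 to -0.42), AT1G66100 (-0.61 to -0.52), AT3G12150 (-0.61 to -0.53) and AT3G28480 (-0.62 to -0.51) were among the steadiest. So were AT3G62820 (-0.48 to -0.39), AT1G26270 (-0.48 to -0.39) and AT2G31390 (-0.49 to -0.39), whose ranges were narrower than that of AT3G28480.

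**Figure D4:**
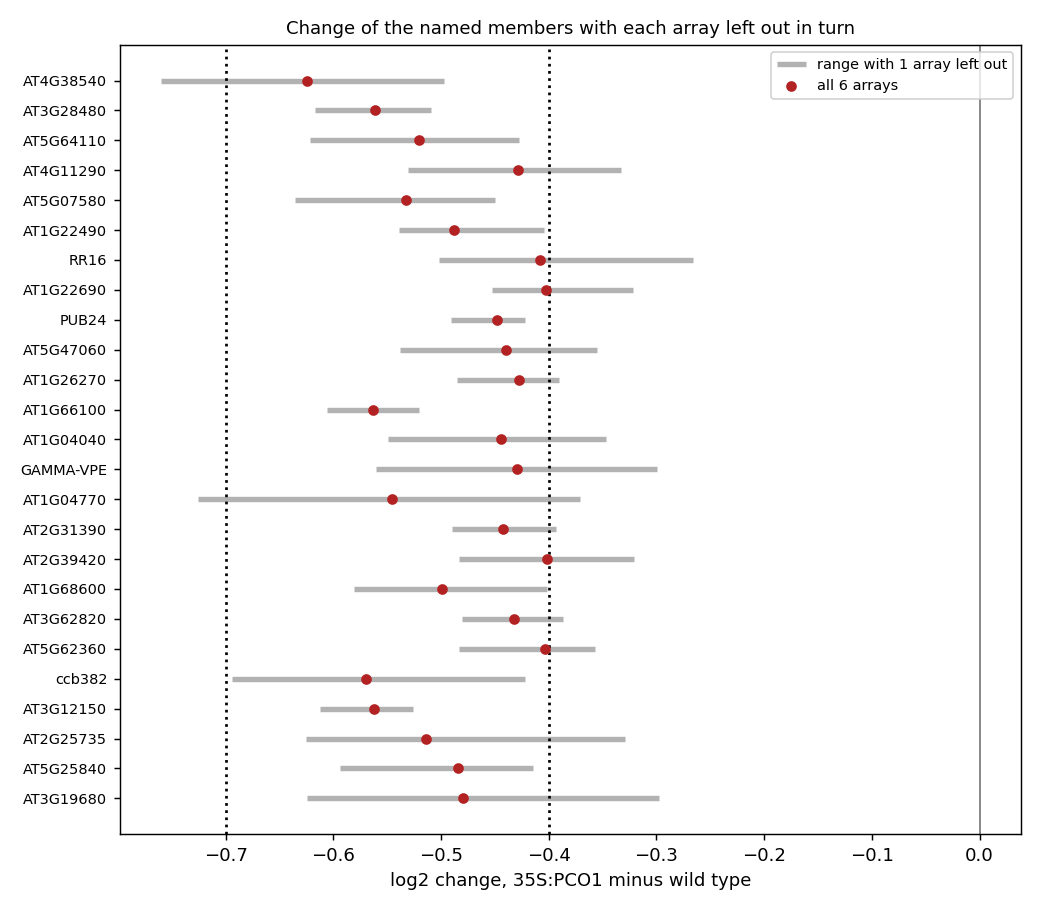
Log2 change (35S:PCO1 minus wild type, horizontal axis) of the 25 named members over all 6 arrays (points) and its range when each array was left out in turn (bars); dotted lines mark -0.7 and -0.4. All bars lie left of 0, and those of AT1G04770 and AT4G38540 also cross the lower edge of the window.

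In the fit of limma across all probe sets, 14 members were called lower at an adjusted p under 0.05, where 0.193% of all probe sets were called lower and 0.264% in either direction. The members were chosen on the same contrast, so nothing is read from that share. The 4 named ones were AT1G66100, AT3G12150, AT3G28480 and PUB24. The count of 14 depended on the setting and on single arrays, and it was 38 with array weights. It was 0 without replicate 1 of 35S:PCO1, 7 without its replicate 2 and 4 without its replicate 3. It was 1 without wild type replicate 1, 14 without wild type replicate 2 and 9 without wild type replicate 3. At an unadjusted p under 0.05 there were 2362 probe sets with all arrays, or 10.4% of all, and 1440 without replicate 1 of 35S:PCO1. They held 54 members in both cases, and 53 without replicate 2 of 35S:PCO1, which the choice of members nearly fixes, so nothing is read from it. The 34 probe sets with a larger decrease had a median change of -1.17, and 29 of them were called. They too were chosen on the same contrast, so nothing is read from that share.

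The edges of the window cut through a continuous range. Just inside the upper threshold lay AT2G39420 with a change of -0.402 and an unlisted probe set with -0.40. Just outside it lay AT3G50860 with -0.397 and CLE41, which encodes a peptide that acts in vascular development, also with -0.397. At the other edge, unlisted probe sets lay just inside, with -0.685 and -0.668, and the hypoxia-list genes AT4G24110, with -0.728, and AT4G33560, with -0.756, just outside. Just above the threshold on the wild-type mean lay 2 unlisted probe sets, with wild-type means of 5.03 and 5.08. AT3G23170, another hypoxia-list gene, met the other conditions with a change of -0.51 but had a wild-type mean of 4.79, and AT3G09020 had 4.95.

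The other lists of genes drawn up for comparison held none of the members and had few matched genes. For sugar use, glycolysis and fermentation 4 of 18 genes were matched, with a median change of -0.17 that describes none of them. GAPC2 had 0.025 and PPDK -0.036, with overlapping groups. PDC2 had -0.31 and AT4G17260 -0.33, with separate groups, and both are also on the hypoxia list. For ethylene 2 of 16 were matched, with a median of -0.026, and for cell wall loosening 3 of 12, with 0.039. Jasmonate and wounding had 2 of 11 with a median of -0.29, and heat shock 5 of 12 with 0.11. That median does not describe 2 of the 5 heat shock genes, Fes1A and Hop3, which were called higher by limma, as were 0.0703% of all probe sets. Fes1A, a co-chaperone gene, had 7.49, 7.86 and 7.33 in 35S:PCO1, against 6.54, 6.33 and 6.41 in wild type, a change of 1.14 (SE 0.13). Hop3, also a co-chaperone gene, had 4.14, 4.42 and 3.86 in 35S:PCO1, against 3.22, 3.32 and 3.30 in wild type, a change of 0.86 (SE 0.12). One gene each was matched for growth hormone response, the clock, and dark and sugar starvation, with changes of -0.022, 0.015 and 0.20. No gene was matched for the group VII ERF and N-degron list, cuticle and lipid transfer, salicylate defence or nitrate.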

How the data were processed

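Total RNA was hybridised to 1-colour Affymetrix Arabidopsis arrays after biotin labelling, 3 arrays of 35S:PCO1 and 3 of wild type. The authors deposited log2 values from RMA, the robust multi-array average, a method named in the submitters' processing notes without a version. RMA equalises the distributions of the arrays and compresses dim values, so folds of dim genes may be understated, and no detection calls were used. The table holds 22810 probe sets, of which 64 controls were left out. Array medians ranged from 5.86 to 5.91. Precision is limited by the number of arrays, and SEs and calls measure the spread between arrays, which may be partly technical.

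Names came from the platform annotation, with symbols renewed from the TAIR10.1 gene table by gene number and ccb382 updated by synonym. Of the probe sets, 13513 have 1 gene, 503 several and 8730 none listed. Genes with several probe sets were represented by the brightest in wild type. Roles are general knowledge of Arabidopsis genes, since the tables give few descriptions, and classes were set by hand. Up to 4 members per class with the largest decrease, which took in all 25 named members, were given array by array. Members, lists and families were chosen with earlier results of these data known.

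The groups were fitted in R 4.3.3 with limma 3.58.1 (lmFit, eBayes), 2-sided and without covariates, with Benjamini-Hochberg adjustment over 22746 probe sets, called at an adjusted p under 0.05. The fit was tested on simulated data, and the outcome is not given here. SE is limma's moderated standard error of the log2 change. Alternatives were median centring, repeated quantile normalization, a replicate block, trend and robust options, array weights, a filter at the 40th percentile, other thresholds, and each array left out. Promoter motifs and protein starts were planned but are not analysed here.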

Additional observations from a re-analysis of the deposited data

Results flagged for a closer look

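The array carries a control for 5S ribosomal RNA that enters no comparison. On it 35S:PCO1 was 0.868 log2 units above wild type on average. The values were 5.66, 5.65 and 5.65 in 35S:PCO1, against 4.98, 3.93 and 5.45 in wild type, and wild type replicate 2 was the lowest. For 25S ribosomal RNA the difference was -0.073. The difference was not tested.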

How the results depend on the processing

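The rule found 54 probe sets. Centring each array on its median left 48 and repeated quantile normalization 41, all of them among the 54. The rule found 58 without a threshold on the wild-type mean, 44 with that threshold at 6, 68 without the condition on overlap and 25 with an upper threshold of -0.5. With 1 array left out it found from 54 to 85, among them 84 without replicate 2 of 35S:PCO1 and 85 without wild type replicate 2, where fewer values have to be separate; of the 54, from 36 to 51 were found again. The median change of the 54 ranged from -0.51 to -0.48 with 1 array left out, and was -0.48 after centring and -0.47 after repeated quantile normalization.

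By limma, 60 probe sets were called in all, 255 with array weights, and from 23 to 60 with 1 array left out; 14 members were called, 38 with array weights, and from 0 to 14 with 1 array left out. The replicate numbers were not taken to pair the arrays. The deviations of same-numbered arrays from their group means correlated at -0.059, -0.22 and -0.26 across probe sets, so no positive relation was seen. With 3 arrays per group, these values cannot settle whether same-numbered plants shared a treatment run. With the replicate block, 26 probe sets and 0 members were called, and 1786 probe sets, 54 members among them, had an unadjusted p under 0.05, which the choice of members nearly fixes; the cause of the lost calls was not tested. Of 275 recomputed changes of the named members, none turned positive, which says little, since the members were chosen as lower, the block and the filter leave each change as it is, and leaving out 1 array can move a mean only within limits.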

Other observations

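The nuclear genes among the named members were spread over the 5 chromosomes, with 7 on chromosome 1, 4 on chromosome 2, 5 on chromosome 3, 3 on chromosome 4 and 5 on chromosome 5. A directly flanking protein-coding gene could be matched for 19 of them, 24 flanking genes in all. Their median log2 change was -0.033, with a range from -0.33 to 0.16. In 4 of the 24 all 35S:PCO1 arrays were below all wild-type arrays, against 10.5% of all probe sets. The largest was AT1G66090, beside the thionin gene AT1G66100, with a mean log2 signal of 4.62 in 35S:PCO1 and 4.95 in wild type.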
